A study of Mus musculus with 6 samples.

Results

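Glucose use in the mouse heart was followed through 35 listed genes of glycolysis, lactate handling and glycogen turnover, all 35 of them found among the 29385 genes of the tables and all 35 above the filter on low values. The genes were listed by name, with earlier results of these data known, and no threshold on measured values was applied. Poly(A) RNA had been sequenced from 6 heart samples taken 12 months after an administration to newborns, 2 samples in each of 3 groups. Every sample, controls included, carried the RH allele of Myh6, the gene for the alpha myosin heavy chain of the adult mouse ventricle. The groups were Myh6 RH/+ given vehicle, Myh6 RH/RQ given vehicle, and Myh6 RH/RQ given AAV-hpCas13d, an adeno-associated virus that carries a form of the RNA-cutting enzyme Cas13d (called treated from here on). What the RH and RQ alleles change, the promoter and guide of the vector, the part of the heart sampled, and whether each sample is a different animal are not given in the sources used here. The p-values therefore measure only the spread between these samples, which may be technical.

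Glycolysis splits glucose into pyruvate in the cytosol and yields ATP without oxygen, and lactate dehydrogenase interconverts pyruvate and lactate, which cells exchange through monocarboxylate transporters. The adult heart takes most of its ATP from fatty acid oxidation, uses lactate as a fuel, and keeps glycogen as a local store of glucose. Many steps are served by paralogous genes, of which a muscle form (Pfkm, Eno3, Pgam2, Pygm) dominates in striated muscle and a broadly expressed or brain form (Pfkp, Pfkl, Eno1, Pgam1, Pygb) elsewhere.

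Across the pathway, 4 of the 35 genes passed the test in at least 1 comparison, and they stand at 3 different points of it. The share of all genes that passed is given with each comparison below. Pfkp, a minor subunit of phosphofructokinase, was higher in both RH/RQ groups than in RH/+ hearts. Eno3, the muscle enolase, was lower in RH/RQ vehicle hearts, Pfkfb1, a bifunctional regulator of phosphofructokinase, was lower in treated than in RH/+ hearts, and Ppp1r3b, a glycogen-targeting subunit of protein phosphatase 1, was lower in treated hearts than in either vehicle group. The test was limma on log2(CPM + 1), where CPM is the read count of a gene scaled to the total of its library, with Benjamini-Hochberg adjustment over 16804 genes and calls at an adjusted p under 0.05. Fold changes on this scale understate the change of low genes.

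The proximal promoters of the 2 enzyme genes that moved apart between RH/+ and RH/RQ vehicle hearts are printed here, 250 bases before to 50 after the RefSeq start on GRCm38.p6, because one rose and the other fell. Capitals mark the core of the hypoxia response element, ACGTG or GCGTG on either strand. The Pfkp window is chr13:6648722-6649021 (minus strand) and the Eno3 window chr11:70656926-70657225 (plus strand), both written 5′ to 3′ along the gene.
Pfkp: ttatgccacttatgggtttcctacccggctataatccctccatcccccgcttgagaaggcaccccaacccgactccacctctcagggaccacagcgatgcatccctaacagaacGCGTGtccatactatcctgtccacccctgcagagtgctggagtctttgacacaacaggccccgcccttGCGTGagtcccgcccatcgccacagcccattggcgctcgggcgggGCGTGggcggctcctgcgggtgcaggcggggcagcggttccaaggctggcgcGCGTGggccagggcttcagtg
Eno3: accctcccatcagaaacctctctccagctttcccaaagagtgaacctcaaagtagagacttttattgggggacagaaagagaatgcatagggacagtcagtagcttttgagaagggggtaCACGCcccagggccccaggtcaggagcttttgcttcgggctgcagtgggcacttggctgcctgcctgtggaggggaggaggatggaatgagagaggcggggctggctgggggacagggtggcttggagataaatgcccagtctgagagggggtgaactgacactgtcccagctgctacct
The Pfkp window held 4 cores and the Eno3 window 1. Such a core was present in 43.8% of all 32851 promoter windows and in 35 of the 50 windows of these genes, which cover 33 of the 35 genes. The GC box, GGGCGG on either strand, was in 35.7% of all windows and in 26 of the 50, and the Pfkp window held 4 of them. A match is a description of letters and was not tied to any factor here.

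Before the results, the libraries need 1 remark. They held between 36269261 and 51017058 reads, and the lowest count of any of the 35 genes in a library was 83 reads, for Slc16a3, so none of them was near the limit of 3 reads that a count of 0 allows (0.0588 to 0.0827 CPM; counting error only). The cardiomyocyte markers, 12 of 12 detected, summed to 55229.5 and 56804 CPM in RH/+ vehicle, 49434 and 50794 CPM in RH/RQ vehicle and 56196 and 55108 CPM in treated hearts. Xist, transcribed from the inactive X of females, lay between 265 and 326 CPM in the RH/+ and treated libraries, against 0.274 and 0.0516 CPM in the pair of RH/RQ vehicle libraries. The Y-linked Ddx3y was at 85.2 CPM in both of the latter and had 0 reads in the other 4. Genotype and treatment cannot be told apart from sex in either comparison that involves the RH/RQ vehicle hearts. In treated against RH/+ hearts 0 of 5 sex-linked genes were called by limma, edgeR or DESeq2, and at an unadjusted p under 0.05 the count was also 0. Of the 35 genes, Pfkfb1, Pgk1 and Phka1 lie on the X chromosome.

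Together the 35 genes took between 1.32% and 1.55% of the reads of a library. Per kilobase of exon, Ldhb, the lactate dehydrogenase subunit of the heart, had the highest mean level over the 6 libraries at 904 ± 69.1 CPM per kilobase (SD, n = 6). Aldoa, the muscle aldolase, followed at 666 ± 40.3, Eno3 at 584 ± 89.8 and Pgam2, the muscle phosphoglycerate mutase, at 543 ± 60.3 CPM per kilobase. The levels of Eno3 and Pgam2 lay within each other's spread, and Aldoa stood above Ldhb when the longest transcript set the length (1252 against 1089 CPM per kilobase). At the low end were Pfkfb1 at 2.40 ± 0.913, Pfkfb3 at 1.5 ± 0.172 and Slc16a3, the lactate exporter of glycolytic cells, at 0.480 ± 0.0643 CPM per kilobase. Between its lowest and highest library, CPM of Pfkfb1 differed 3.10-fold, that of Ppp1r3b 1.63-fold, that of Pfkp 1.54-fold and that of Eno3 1.48-fold. Ldha, the subunit of lactate dehydrogenase typical of glycolytic tissue, moved least, by 1.14-fold.

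**Figure D1:**
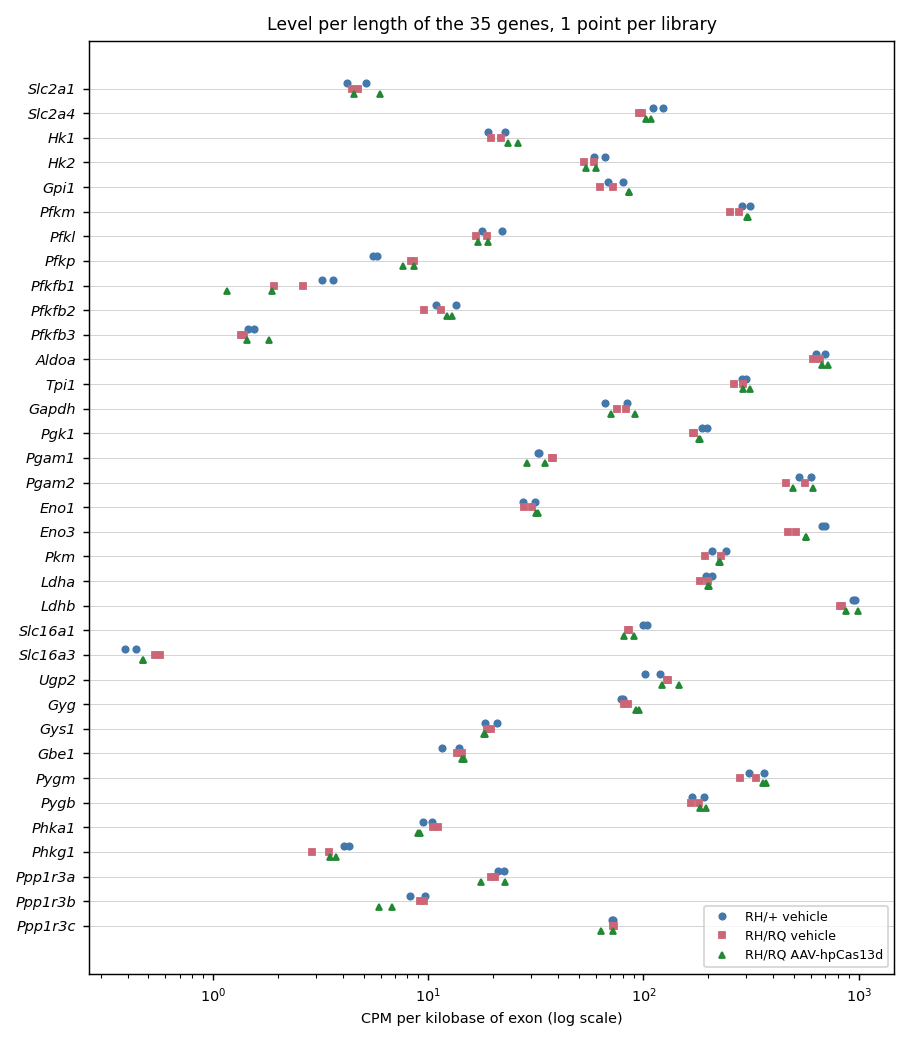
Level of each of the 35 genes per kilobase of exon, in CPM per kilobase on a log scale, with 1 point for each of the 6 libraries (circles RH/+ vehicle, squares RH/RQ vehicle, triangles treated). Ldhb lies at the top of the range with a mean of 904 and Slc16a3 at the bottom with 0.480 CPM per kilobase; the points of a gene lie close together for most genes and are widest apart for Pfkfb1.

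RH/RQ vehicle and RH/+ vehicle hearts differ by the RQ allele and also in the sex-linked pattern, and these cannot be told apart. In RH/RQ vehicle against RH/+ vehicle hearts Pfkp was called higher and Eno3 lower, 2 of 35 genes. Beside this, limma called 4.99% of all genes tested (3.48% higher and 1.51% lower). Without the 3 X-linked genes it was 2 of 32. Both libraries of the RH/RQ group lay above both RH/+ libraries for 7 of the 35 genes, against 30.8% of all genes, and below them for 10, against 18.5%. For the other 18 the libraries overlapped. The median log2 fold change of the 35 was -0.081, beside 0.038 over all genes tested.

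In treated against vehicle RH/RQ hearts, Ppp1r3b was called lower and no gene higher, 1 of 35, beside 2.05% of all genes (1.22% higher and 0.827% lower). None was called higher by limma, edgeR or DESeq2. At an unadjusted p under 0.05 limma gave 5 higher and 4 lower. The share of all genes at an unadjusted p under 0.05 was not computed, which holds also for the counts at that threshold elsewhere. Both treated libraries lay above both vehicle libraries for 17 genes, against 26.2% of all genes, and below them for 7, against 14.4%. The median log2 fold change was 0.099, beside 0.044 over all genes.

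Treated RH/RQ and RH/+ vehicle hearts share the sex-linked pattern but differ in both the RQ allele and the vector, which cannot be told apart. In treated RH/RQ against RH/+ vehicle hearts Pfkp was higher and Pfkfb1 and Ppp1r3b lower, 3 of 35, beside 2.86% of all genes (2.33% higher and 0.530% lower). Both treated libraries were above both RH/+ libraries for 8 genes, against 35% of all genes, and below them for 8, against 9.66%. The median log2 fold change was 0.0083 beside 0.084 over all genes, and it became -0.098 and -0.10 under TMM and RLE scaling and -0.022 with CPM over nuclear genes, so its sign depends on the scaling. The 3 comparisons share groups, so their values are given side by side and are not independent of each other.

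**Figure D2:**
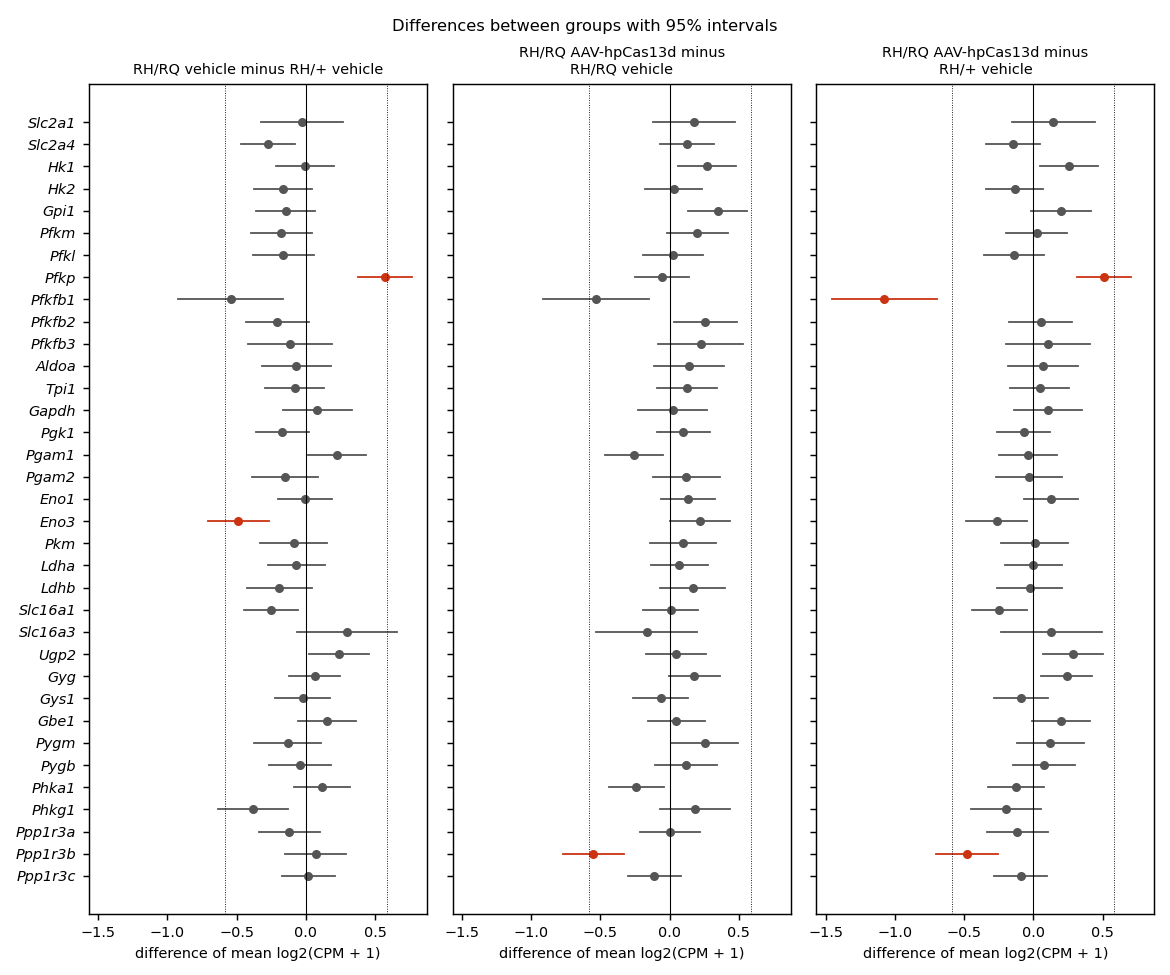
Difference between group means of log2(CPM + 1) for each of the 35 genes, 1 panel per comparison, with 95% intervals from limma; red marks adjusted p under 0.05 and the dotted lines a fold of 1.5 either way. Pfkp stands right of 0 in both comparisons with RH/+ hearts, Eno3 left of 0 in the first panel, Ppp1r3b left of 0 in the other 2, and Pfkfb1 farthest left in the last at -1.08.

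Glucose enters the cardiomyocyte through GLUT4, encoded by Slc2a4 and moved to the surface by insulin, and through GLUT1, encoded by Slc2a1. Slc2a4 was at 384 and 429.7 CPM in RH/+ vehicle, 331 and 341 CPM in RH/RQ vehicle and 377 and 357 CPM in treated hearts. Both RH/RQ vehicle libraries were the lowest of the 6. The log2 fold change of RH/RQ vehicle against RH/+ was -0.27 (SE 0.095), which limma did not call (adjusted p = 0.11) and DESeq2 did (adjusted p = 0.0139), the alternatives ranging from 0.0139 to 0.594. Slc2a1 lay between 14.8 and 20.8 CPM with all groups overlapping.

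Hexokinases trap glucose as glucose 6-phosphate. Hk2, the insulin-responsive form of muscle, lay between 315 and 397 CPM with overlapping groups. Hk1, the broadly expressed form, was at 162 and 193 CPM in RH/+ vehicle, 167 and 186 CPM in RH/RQ vehicle and 201 and 223 CPM in treated hearts. Both treated libraries were the highest of the 6, standing 0.27 (SE 0.10, limma adjusted p = 0.239) above RH/RQ vehicle and 0.26 (SE 0.10, limma adjusted p = 0.209) above RH/+ hearts on the log2 scale, and neither difference was called. Gpi1, which turns glucose 6-phosphate into fructose 6-phosphate, was at 443 and 520.0, 406 and 464, and 550.2 and 553 CPM in the same order of groups. Its treated libraries were also the highest, with a log2 fold change of 0.35 (SE 0.10) over RH/RQ vehicle hearts and a limma adjusted p of 0.0953 (0.0158 to 0.496 over the alternatives).

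Phosphofructokinase-1 commits the sugar to glycolysis and is built from the products of Pfkm, Pfkl and Pfkp, the muscle, liver and platelet subunits. Pfkp (chromosome 13, 6579768 to 6648777, minus strand, GENCODE M21 on GRCm38) was at 77.4 and 74.3 CPM in RH/+ vehicle, 115 and 111 CPM in RH/RQ vehicle and 102 and 115 CPM in treated hearts. All 4 RH/RQ libraries lay above both RH/+ libraries, and the treated and vehicle RH/RQ libraries overlapped. Pfkp rose by 0.57 on the log2 scale in RH/RQ vehicle hearts (SE 0.094, 95% interval 0.37 to 0.76, limma adjusted p = 0.000458) and stood 0.51 above RH/+ in treated hearts (SE 0.094, 95% interval 0.32 to 0.70, limma adjusted p = 0.00233). Treated hearts differed from RH/RQ vehicle hearts in Pfkp by -0.057 (95% interval -0.25 to 0.14). Both calls were lost when no filter on low genes was used (limma adjusted p = 0.0686 and 0.165) and held in the other 16 alternatives, the highest adjusted p with a library left out being 0.00953 and 0.0357.

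The muscle subunit Pfkm was at 961 and 1047 CPM in RH/+ vehicle, 844 and 933 CPM in RH/RQ vehicle and 1027 and 1011 CPM in treated hearts, and Pfkl lay between 111 and 146 CPM. Neither was called in any comparison. Pfkm gave most of the RNA of the family per kilobase, and the share of Pfkp was 1.85% and 1.63% in RH/+ vehicle, 3.08% and 2.70% in RH/RQ vehicle and 2.29% and 2.61% in treated hearts. The Pfkp share was thus higher in each of the 4 RH/RQ libraries than in either RH/+ library, and it was a small part of the family in all 6. The summed CPM of the 3 genes ranged from 1069 to 1267, and the RH/+ vehicle libraries overlapped with those of either RH/RQ group.

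Fructose 2,6-bisphosphate, the strongest activator of phosphofructokinase-1, is made and removed by the bifunctional enzymes of Pfkfb1, Pfkfb2 and Pfkfb3, named for liver, heart and inducible forms. Pfkfb1 (X chromosome, 150588229 to 150643878, plus strand) was at 12.9 and 14.4 CPM in RH/+ vehicle, 7.72 and 10.5 CPM in RH/RQ vehicle and 7.53 and 4.64 CPM in treated hearts. The groups did not overlap and stood in the order RH/+, RH/RQ vehicle, treated. Pfkfb1 fell by 1.08 on the log2 scale in treated against RH/+ hearts (SE 0.18, 95% interval -1.46 to -0.70, limma adjusted p = 0.00104). Against RH/+ the RH/RQ vehicle hearts differed by -0.54 (SE 0.18, limma adjusted p = 0.0975; edgeR 0.0392, DESeq2 0.0639), and treated differed from vehicle RH/RQ hearts by -0.53 (SE 0.18, limma adjusted p = 0.177). The fall in treated against RH/+ hearts held in 16 of 17 alternatives, with a highest adjusted p of 0.0156 when a library was left out, and was lost with no filter on low genes (limma adjusted p = 0.246). Without the second treated library the value was -0.78 and without the first -1.37.

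Pfkfb2, the heart form, was at 97.5 and 78.9, 83.3 and 69.1, and 88.8 and 93.0 CPM in RH/+ vehicle, RH/RQ vehicle and treated hearts, and was not called. Pfkfb3 lay between 10.2 and 13.8 CPM. Pfkfb1 made up 17.7% and 22.4% of the RNA of the 3 genes per kilobase in RH/+ vehicle, 13.0% and 19.5% in RH/RQ vehicle and 11.8% and 7.49% in treated hearts.

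**Figure D3:**
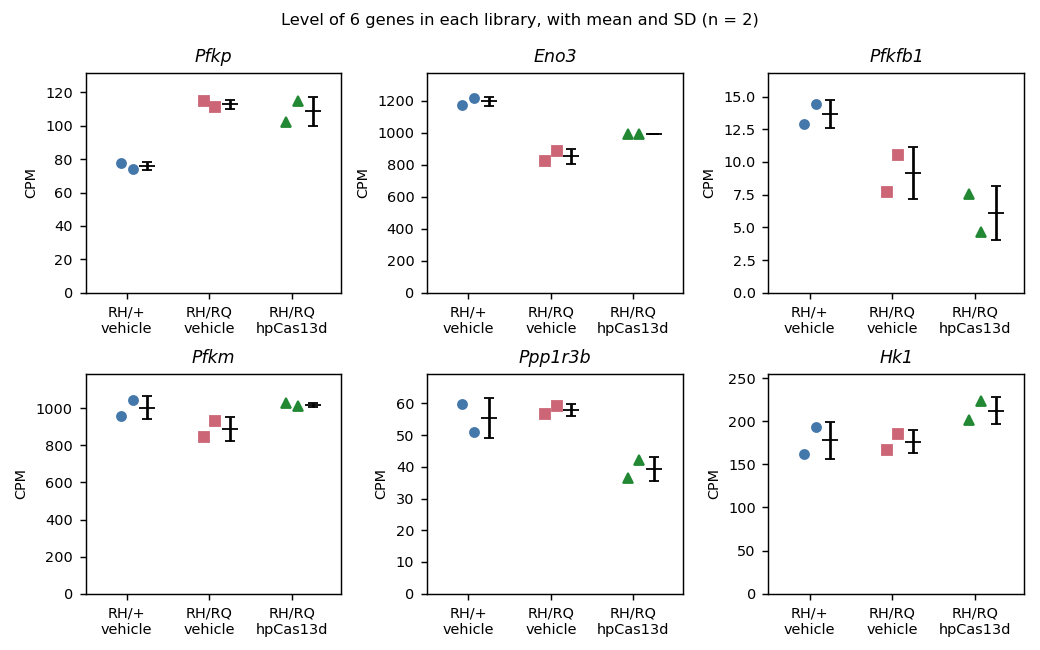
CPM of 6 genes in each library by group, with the group mean and SD beside the points (n = 2 each; each axis starts at 0). Pfkp is higher in the 4 RH/RQ libraries (102 to 115 CPM) than in RH/+ (74.3 and 77.4), Eno3 is lowest in RH/RQ vehicle (821 and 887), Pfkfb1 steps down over the 3 groups, and Ppp1r3b is lowest in treated hearts (36.6 and 42.0); Pfkm and Hk1 are shown beside them and were not called.

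The lower part of glycolysis, from aldolase to pyruvate kinase, held 9 of the genes, of which 1 was called. Eno3 (chromosome 11, 70657202 to 70662513, plus strand), the enolase of adult muscle, was at 1175 and 1218 CPM in RH/+ vehicle, 821 and 887 CPM in RH/RQ vehicle and 996 and 993 CPM in treated hearts. The 3 groups did not overlap, and the treated libraries lay between the vehicle groups. Eno3 fell by 0.49 on the log2 scale in RH/RQ vehicle hearts (SE 0.11, 95% interval -0.70 to -0.27, limma adjusted p = 0.00585). The call was lost without either RH/+ library (limma adjusted p = 0.0537 and 0.0884), without the first RH/RQ vehicle library (0.143) and with no filter on low genes (0.155), and it held in the other 13 alternatives, with 0.00344 by edgeR and 1.26e-06 by DESeq2. In treated hearts Eno3 stood 0.22 above RH/RQ vehicle (95% interval 0.0028 to 0.44, limma adjusted p = 0.393) and differed from RH/+ by -0.27 (95% interval -0.48 to -0.049, limma adjusted p = 0.21; DESeq2 0.00425), neither of which limma called. The summed cardiomyocyte markers given above were likewise lowest in the RH/RQ vehicle libraries. Of those 12 markers limma called 0 in RH/RQ vehicle against RH/+ hearts (2 lower at an unadjusted p under 0.05, edgeR 1 lower, DESeq2 4 lower). Their median was -0.10 on the log2 scale, and their part in the fall of Eno3 was not tested.

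The broadly expressed enolase Eno1 was at 148 and 168, 150.4 and 163, and 174 and 169.8 CPM in the 3 groups in the same order, and the difference of RH/RQ vehicle from RH/+ was -0.0086 (95% interval -0.20 to 0.19). Per kilobase Eno1 made up 3.92% and 4.26% of enolase RNA in RH/+ vehicle, 5.59% and 5.62% in RH/RQ vehicle and 5.35% and 5.24% in treated hearts. With the longest transcript as length these shares were 8.87% and 9.60%, 12.4% and 12.4%, and 11.9% and 11.7%, in the same order of groups. The Eno1 share was higher in all 4 RH/RQ libraries than in RH/+. In transcripts of Eno1, 72.2% of 50-base windows also occur in other genes, among them Eno1b, so its level is uncertain; Eno3 shared no such window.

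Aldoa lay between 1778 and 2102 CPM and Tpi1, which interconverts the triose phosphates, between 729 and 866 CPM, with overlapping groups in each comparison with RH/+ hearts. Gapdh, often used as a reference transcript, was at 272 and 348 CPM in RH/+ vehicle, 311 and 341 CPM in RH/RQ vehicle and 376 and 291 CPM in treated hearts. Its groups overlapped, and 82.5% of its 50-base windows occur in other genes of the annotation. Pgk1, the first ATP-yielding step, lay between 380.2 and 442 CPM and was not called. Of the mutases, Pgam1 was at 64.0 and 64.5 CPM in RH/+ vehicle, 74.6 and 75.6 CPM in RH/RQ vehicle and 68.7 and 57.0 CPM in treated hearts, and the muscle form Pgam2 between 385 and 516 CPM. The RH/RQ vehicle libraries were the highest for Pgam1, yet its log2 fold changes of 0.22 against RH/+ (limma adjusted p = 0.26) and -0.26 for treated against vehicle RH/RQ (limma adjusted p = 0.26) were not called. Pkm, the pyruvate kinase of muscle, lay between 970.5 and 1209.9 CPM with overlapping groups. In transcripts of Pgk1, Pgam1 and Pkm, 68%, 41.5% and 34.4% of 50-base windows also occur in other genes, so their levels are uncertain too.

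Lactate dehydrogenase subunits stayed close together across the groups. Ldha was at 644 and 691 CPM in RH/+ vehicle, 608 and 663 CPM in RH/RQ vehicle and 670.3 and 663 CPM in treated hearts, and its log2 difference between treated and RH/+ hearts had a 95% interval of -0.21 to 0.21. Ldhb was at 1508 and 1473, 1287 and 1321, and 1556 and 1374 CPM in the same order. The RH/RQ vehicle libraries were the lowest for Ldhb, by -0.19 (95% interval -0.43 to 0.04) against RH/+, which was not called. Ldha made up 16.8% to 19.2% of the RNA of both subunits per kilobase.

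Slc16a1 encodes MCT1, the transporter through which the heart takes up lactate. It was at 459.8 and 442 CPM in RH/+ vehicle, 381 and 376 CPM in RH/RQ vehicle and 359 and 402 CPM in treated hearts. All 4 RH/RQ libraries lay below both RH/+ libraries, by -0.25 (SE 0.095) in each comparison, with limma adjusted p of 0.147 for vehicle and 0.201 for treated hearts; DESeq2 gave 0.0382 and 0.0185, and all the alternatives ranged from 0.0382 to 0.631 and from 0.0185 to 0.713. Slc16a3, which encodes the exporter MCT4, stayed between 2.08 and 3.02 CPM, so that Slc16a1 gave 99.3% to 99.6% of their RNA per kilobase.

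Glycogen synthesis was represented by Ugp2, which makes the sugar donor UDP-glucose, Gyg, the glycogenin that primes the chain, Gys1, the muscle glycogen synthase, and Gbe1, the branching enzyme. None was called by limma, edgeR or DESeq2 in any comparison, and at an unadjusted p under 0.05 limma gave 1 higher in RH/RQ vehicle against RH/+, 0 in treated against vehicle RH/RQ and 2 higher in treated against RH/+ hearts. Ugp2 was at 366 and 312 CPM in RH/+ vehicle, 400.2 and 397 CPM in RH/RQ vehicle and 376 and 449 CPM in treated hearts. All 4 RH/RQ libraries were above both RH/+ libraries, with log2 fold changes of 0.24 (limma adjusted p = 0.234) and 0.28 (limma adjusted p = 0.176). Gyg was at 188 and 184, 191 and 198, and 217 and 223 CPM in the same order. Its groups did not overlap, and treated hearts stood 0.24 above RH/+ (95% interval 0.056 to 0.43, limma adjusted p = 0.173). Gys1 lay between 87.3 and 99.6 CPM and Gbe1 between 61.7 and 78.3 CPM.

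Glycogen phosphorylase releases glucose 1-phosphate and is switched on by phosphorylase kinase. The muscle form Pygm lay between 903 and 1189.5 CPM and the brain form Pygb between 801 and 938 CPM, and Pygb made up 33.8% to 37.3% of their RNA per kilobase. Phkg1, the catalytic subunit of phosphorylase kinase in muscle, was at 26.3 and 27.9 CPM in RH/+ vehicle, 22.6 and 18.7 CPM in RH/RQ vehicle and 22.7 and 24.3 CPM in treated hearts. Both RH/RQ vehicle libraries lay below both RH/+ libraries. The log2 fold change was -0.38 (SE 0.12) with a limma adjusted p of 0.0723, just above the threshold, while edgeR gave 0.0212 and DESeq2 0.0178 within a range of 0.0178 to 0.505 over the alternatives. Phka1, the X-linked regulatory subunit of muscle, was at 65.1 and 59.2, 65.5 and 69.1, and 56.1 and 57.5 CPM in the 3 groups. Its treated libraries were the lowest, by -0.24 against RH/RQ vehicle (limma adjusted p = 0.279), which was not called.

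Protein phosphatase 1 is brought to glycogen by targeting subunits and there switches synthase on and phosphorylase off. Ppp1r3b (chromosome 8, 35375739 to 35388139, plus strand) encodes the subunit known as GL. It was at 59.8 and 50.9 CPM in RH/+ vehicle, 56.6 and 59.2 CPM in RH/RQ vehicle and 36.6 and 42.0 CPM in treated hearts. The vehicle groups overlapped and both treated libraries lay below all 4 vehicle libraries. Ppp1r3b fell by 0.55 on the log2 scale in treated against vehicle RH/RQ hearts (SE 0.11, 95% interval -0.77 to -0.33, limma adjusted p = 0.00492; edgeR 0.00182, DESeq2 0.00025) and by 0.48 in treated against RH/+ hearts (SE 0.11, 95% interval -0.70 to -0.26, limma adjusted p = 0.0125; edgeR 0.00279, DESeq2 0.000401). The first call was lost without the second RH/RQ vehicle library (limma adjusted p = 0.0597), without the first treated library (0.052) and with no filter on low genes (0.221), and held in the other 14 alternatives. The second was lost without the first RH/+ library (0.327), without the first treated library (0.107) and with no filter on low genes (0.246), and held in the other 14.

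The other targeting subunits did not pass. Ppp1r3a, the GM subunit of striated muscle, lay between 123 and 159 CPM and was as variable within the treated group as across all libraries. Ppp1r3c, known as PTG, was at 196 and 197 CPM in RH/+ vehicle, 197 and 199.6 CPM in RH/RQ vehicle and 172 and 196 CPM in treated hearts. Ppp1r3b made up 9.25% and 8.07% of the RNA of the 3 subunits per kilobase in RH/+ vehicle, 9.0% and 9.23% in RH/RQ vehicle and 6.79% and 6.65% in treated hearts.

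Shares within a family are computed inside 1 library, so the scaling of libraries does not enter them. The size of a share does depend on the length set for each gene, which is merged exons unless stated. The share of Hk1 in hexokinase RNA per kilobase was 24.4% and 25.4% in RH/+ vehicle, 27.0% and 26.9% in RH/RQ vehicle and 30.4% and 30.3% in treated hearts, without overlap between groups. With the longest transcript as length it was 37.3% and 38.5%, 40.5% and 40.4%, and 44.6% and 44.5%, in the same order of groups. The share was computed for 11 genes in all, Hk1 is singled out after its values were seen, and no test was made of it. Slc2a1 made up 3.67% to 5.20% of its pair with Slc2a4, Pfkl 5.19% to 6.43% of phosphofructokinase-1 RNA, and Pgam1 5.15% to 7.59% of its pair with Pgam2. With the longest transcript as length the Pfkl share was 7.72% to 9.53%.

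**Figure D4:**
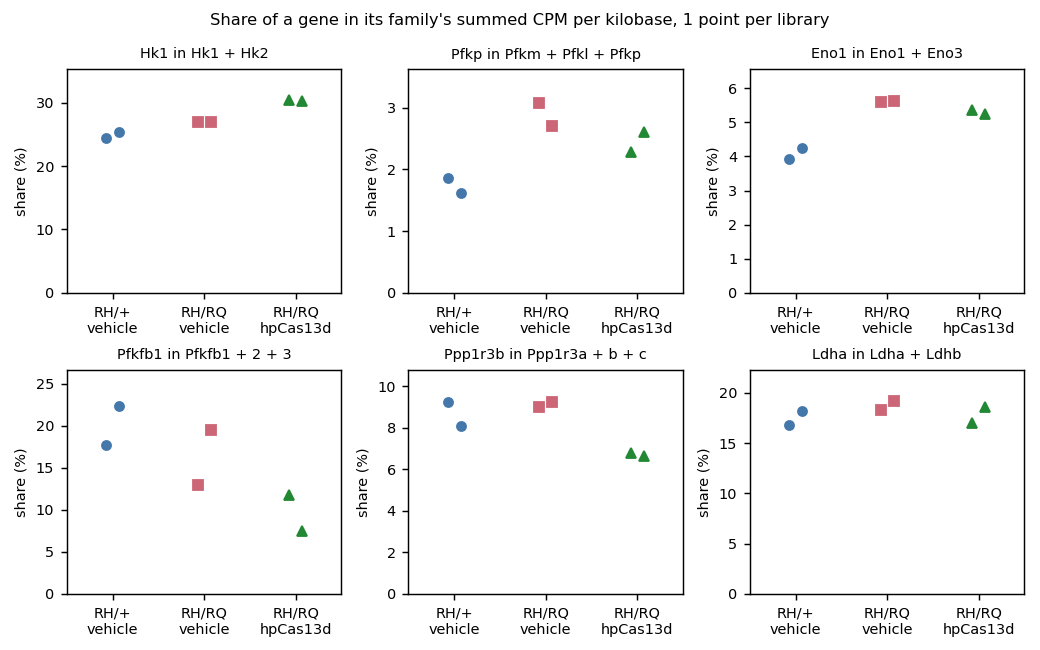
Share of a gene in the summed CPM per kilobase of its family, with merged exons as length, in percent, with 1 point per library in each of the 3 groups (axes start at 0). Hk1 steps up over the groups from 24.4% to 30.4%, Pfkp and Eno1 are higher in all 4 RH/RQ libraries than in RH/+, Ppp1r3b is lowest in treated hearts at 6.65% and 6.79%, and the Ldha share stays between 16.8% and 19.2%.

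For most of the genes that were not called, the intervals did not reach beyond a 1.5-fold change. That bound, 0.585 on the log2 scale, is wider than the called changes of Pfkp, Eno3 and Ppp1r3b. It therefore does not exclude changes of their size. In RH/RQ vehicle against RH/+ hearts the 95% interval lay within a 1.5-fold change either way for 30 of the 33 uncalled genes, the exceptions being Pfkfb1, Phkg1 and Slc16a3. It did so for 33 of 34 in treated against vehicle RH/RQ hearts, where Pfkfb1 was the exception, and for 32 of 32 in treated against RH/+ hearts. An adjusted p above the threshold does not show that the groups were alike. In the authors' deposited tables, 7 of the 35 genes had an adjusted p under 0.05 for RH/RQ vehicle against RH/+ hearts (Slc2a4, Pfkp, Pfkfb1, Eno3, Ldhb, Slc16a1 and Phkg1). The count was 1 for treated against vehicle RH/RQ (Ppp1r3b) and 5 for treated against RH/+ (Pfkp, Pfkfb1, Eno3, Slc16a1 and Ppp1r3b). The share of all genes under that threshold in the authors' tables was not computed, so these counts cannot be set against it.

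Genes next to these on the pathway were followed through 6 further lists. Other steps of glycolysis and sugar transport were represented by 15 tested genes. Slc2a12, a sugar transporter, fell by 0.65 in treated against RH/+ hearts (limma adjusted p = 0.0259), a call lost without any 1 of the 4 libraries compared (highest adjusted p 0.307). In treated against vehicle RH/RQ hearts limma called 0 of the 15, with 3 at an unadjusted p under 0.05, and edgeR and DESeq2 called 0.

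Of 8 other genes of lactate and pyruvate transport, 3 were lower in RH/RQ vehicle than in RH/+ hearts. Bsg, the chaperone that carries MCT1 to the membrane, was at 1119 and 1269.7 CPM in RH/+ vehicle, 806 and 937 CPM in RH/RQ vehicle and 1014 and 892 CPM in treated hearts, and fell by 0.46 (SE 0.11, limma adjusted p = 0.0198). Mpc2, a subunit of the mitochondrial pyruvate carrier, fell by 0.40 (SE 0.11, limma adjusted p = 0.0287) and Slc16a7, which encodes the transporter MCT2, by 0.84 (SE 0.18, limma adjusted p = 0.00497). Each of these calls was lost when 1 of some libraries was left out: the highest limma adjusted p was 0.321 for Bsg (lost without the second RH/+ or first RH/RQ vehicle library), 0.332 for Mpc2 (without the first RH/+ or either RH/RQ vehicle library) and 0.202 for Slc16a7 (without the first RH/+ or second RH/RQ vehicle library). In the comparisons with treated hearts limma called 0 of the 8. At an unadjusted p under 0.05 there were 2 against vehicle RH/RQ and 4 against RH/+ hearts, and DESeq2 called 1 lower in the latter, edgeR 0 in both.

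Pyruvate dehydrogenase turns pyruvate into acetyl-CoA inside the mitochondrion and is switched off by its kinases. Among 12 genes of the complex and its control, Pdk4 was at 146 and 149 CPM in RH/+ vehicle, 461 and 478 CPM in RH/RQ vehicle and 213 and 243 CPM in treated hearts. The 3 groups did not overlap, and RH/RQ vehicle stood 1.66 above RH/+ on the log2 scale (SE 0.094, limma adjusted p = 2.64e-11). Pdk2 went the other way, with a fall of 0.34 (SE 0.094, limma adjusted p = 0.0343) that was lost without any 1 of the 4 libraries compared (highest adjusted p 0.348). Treated hearts were 1.04 below RH/RQ vehicle for Pdk4 (log2 fold change -1.04, limma adjusted p = 1.53e-07) and Pdk2 rose by 0.37 (limma adjusted p = 0.0428), a call that edgeR and DESeq2 did not make and that was lost in limma without any 1 library other than the second treated one (highest adjusted p 0.331). Against RH/+, treated hearts had higher Pdk4, by 0.62 (limma adjusted p = 0.000272), and lower Pdp2, a phosphatase that switches the complex back on, by -0.50 (limma adjusted p = 0.0224, highest adjusted p 0.159 with a library left out, lost without either RH/+ or the first treated library).

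Of 25 regulators of glucose use, 6 were called in RH/RQ vehicle against RH/+ hearts: Txnip, Arrdc4, Mlxipl and Myc higher, Klf15 and Ppargc1a lower. Of these, Klf15 alone stayed called without each of the 4 libraries compared in turn. Mlxipl and Myc lost the call without any 1 of the 4 (highest adjusted p 0.303 and 0.261), Ppargc1a without the first RH/+ or either RH/RQ vehicle library (0.219) and Arrdc4 without the first library of either group (0.127). Txnip, an arrestin that restrains glucose uptake and is switched on by the glucose sensor of Mlxipl, was at 338 and 334 CPM in RH/+ vehicle, 503 and 432 CPM in RH/RQ vehicle and 448 and 410.4 CPM in treated hearts, a rise of 0.47 in RH/RQ vehicle hearts (SE 0.099, limma adjusted p = 0.00502, or 0.16 without the first RH/RQ vehicle library). Klf15, a transcription factor that promotes Slc2a4 expression, was at 40.5 and 42.3 CPM, 23.2 and 24.7 CPM, and 53.5 and 41.5 CPM in the 3 groups. It fell by 0.76 in RH/RQ vehicle hearts (SE 0.12, limma adjusted p = 0.000186) and rose by 0.95 in treated against vehicle RH/RQ hearts (SE 0.12, limma adjusted p = 2.45e-05). Mycn was the other regulator called in that comparison and fell by 0.74 (limma adjusted p = 0.0419), a call lost without the first RH/RQ vehicle or the second treated library (highest adjusted p 0.355). In treated against RH/+ hearts limma called 0 of the 25, with 5 higher at an unadjusted p under 0.05, and edgeR and DESeq2 called 0.

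Other glycogen genes, 18 tested, gave 1 call in all 3 comparisons: Stbd1, which binds glycogen, rose by 0.60 in treated against vehicle RH/RQ hearts (SE 0.14, limma adjusted p = 0.0219), a call lost without either RH/RQ vehicle library or without the first treated library (highest adjusted p 0.189). In the other comparisons none was called by limma, edgeR or DESeq2, with 1 and 2 higher at an unadjusted p under 0.05. Branches from glycolysis, 15 tested, likewise gave 1: Gfpt2, of the hexosamine pathway, rose by 0.55 in the same comparison (SE 0.13, limma adjusted p = 0.0261), which was lost without the second RH/RQ vehicle library or either treated library (highest adjusted p 0.549). In RH/RQ vehicle against RH/+ hearts edgeR and DESeq2 each called 1 of the 15 lower where limma called 0 (2 at an unadjusted p under 0.05), and in treated against RH/+ hearts all of them called 0 (2 at an unadjusted p under 0.05).

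Markers of some other cell types moved with the groups too. In RH/RQ vehicle against RH/+ hearts limma called 0 of 12 endothelial markers, with 3 higher at an unadjusted p under 0.05. Of 10 pericyte and smooth muscle markers it called 2 lower there (Abcc9 and Acta2) and 0 higher. In treated against vehicle RH/RQ hearts it called Cldn5, endothelial, lower and Abcc9 higher, the latter not called by edgeR or DESeq2. In treated against RH/+ hearts it called Acta2 lower and 0 endothelial markers. Of 3 adipocyte markers tested, limma called Plin1 and Cfd lower in RH/RQ vehicle against RH/+ hearts, edgeR called 2 and DESeq2 0. Each of these limma calls except those of Acta2 was lost when 1 of some libraries was left out. Fibroblast markers, 12 of 12 detected, summed to between 2362 and 2797 CPM in RH/+ vehicle, 3350 and 3533 CPM in RH/RQ vehicle and 3486 and 4059 CPM in treated hearts, and limma called 7 of the 12 higher in RH/RQ vehicle against RH/+ hearts, and edgeR and DESeq2 each called 7 too. Of these 7, Pdgfrl lost the call without any 1 of the 4 libraries and Dcn without the first RH/RQ vehicle library. In treated against vehicle RH/RQ hearts each tool called 0 higher and 3 lower. In treated against RH/+ hearts limma called 8 higher, edgeR 4 and DESeq2 6, and 5 of the 8 (Pdgfra, Col1a1, Gsn, Dpt and Pdgfrl) lost the call when 1 library was left out, the first RH/+ library being one of those for each. Macrophage markers summed to between 400.4 and 405, 489.7 and 535, and 431 and 509.7 CPM, with 5 of 12 called higher in RH/RQ vehicle against RH/+ hearts by limma and edgeR and 4 by DESeq2. Adgre1 and Fcgr1 lost that call without any 1 of the 4 libraries, and Mrc1 lost it without the first RH/RQ vehicle library. In treated against vehicle RH/RQ hearts limma called no macrophage marker, with 3 lower at an unadjusted p under 0.05, and edgeR and DESeq2 each called 2 lower. In treated against RH/+ hearts none was called by limma, edgeR or DESeq2, with 5 higher at an unadjusted p under 0.05. Fast skeletal muscle markers, 6 of them tested, gave no limma call in any comparison (at an unadjusted p under 0.05 there were 2, 1 and 1 lower, edgeR called 1 lower in treated against RH/+ and DESeq2 0), and 10 of 12 summed to at most 18.0 CPM in any library, with Myh1 and Myh2 at or under 3 reads. Pfkp, Eno1 and Pygb are also expressed by non-muscle cells. In whole tissue, fewer cells of a type and less RNA per cell cannot be told apart, and the part of cell mix in the results above was not tested.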

How the data were processed

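The authors deposited 3 tables of 4 libraries each, whose values are CPM, that is gene counts scaled to the library total. The same deposited tables hold a signal that averages size-factor-scaled counts over the table, a log2 fold change, a test score and p-values, per the file headers. HISAT2, HTSeq, DESeq2 and mm10 are named per the submitters' processing notes; versions, strandedness and annotation are not given in the sources used here, so overlapping and antisense genes cannot be separated. Reads of a gene and its near-identical copies may likewise have been split or dropped. All CPM values were whole multiples of 1 read (100%, tolerance 0.001), so reads were recovered.

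The plan foresaw this unit. The test was limma 3.58.1 (R 4.3.3) with a mean-variance trend on log2(CPM + 1) and library-total scaling, with all 6 libraries in 1 fit of 3 group means. The filter was filterByExpr (minimum count 10), passed by 16804 of 29385 genes. edgeR 4.0.16 and DESeq2 1.42.0 on the recovered reads, TMM and RLE factors, CPM over nuclear genes, no filter, a mean of at least 1 CPM, pseudocounts of 0.1 and 5, 4 libraries alone, a replicate block and each library left out were alternatives. Levels per kilobase used merged GENCODE M21 exons or the longest transcript, and promoters came from RefSeq GRCm38.p6. All 35 genes are accounted for. Values in each library are given for called genes and for the genes with the smallest p of their role; genes of other lists are named where called, and other genes named were chosen after their values were seen. The members and lists were chosen with earlier results of these data known. Some genes of those lists are not reported here.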

Additional observations from a re-analysis of the deposited data

How the results depend on the processing

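Of 1785 values of single genes of the 35 under alternatives, 1750 kept their status as called or uncalled. A further 13 lost a call, 22 gained one and 0 reversed a call. Among the 1750 were 123 uncalled values that changed sign. Without a filter on low genes all 6 calls were lost (counts of 0 in every comparison). The number lower in RH/RQ vehicle against RH/+ (1) was 3 with edgeR, 4 with DESeq2, 2 with TMM, RLE or the 4 libraries alone, and 0 to 4 with a library left out. The number lower in treated against RH/+ (2) was 4 with DESeq2 and 1 to 2 with a library left out, and the number higher (1) was 1 to 2; in treated against vehicle RH/RQ the number lower (1) was 0 to 1. Median log2 fold changes of the 35 (-0.081, 0.099 and 0.0083) became -0.13, 0.040 and -0.098 with TMM, -0.13, 0.041 and -0.10 with RLE, edgeR or DESeq2, and -0.048, 0.036 and -0.022 with CPM over nuclear genes; with a library left out they were -0.13 to -0.0071, 0.056 to 0.12 and -0.039 to 0.061. The cause of these shifts was not tested. No scaling moved the median of all genes by more than 0.088.

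Sample names share a leading digit across groups, which could pair them, but deviations of same-digit libraries correlated at only 0.13, -0.02 and 0.07 over 16804 genes, so the digit was not taken as a pairing. With the replicate block, 3 genes were lower in RH/RQ vehicle against RH/+ and 1 higher in treated against vehicle RH/RQ. Groups of 2 limit every result: 1 library decides several calls.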

Other observations

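Among the remaining marker lists, Nppa, the atrial natriuretic peptide, was the 1 atrial marker of 4 tested that limma called: its mean was 590.2 CPM in treated hearts against 126 and 114 CPM in the RH/+ and RH/RQ vehicle groups, and the treated group stood 2.30 above RH/RQ vehicle on the log2 scale (SE 0.16, limma adjusted p = 2.11e-09) and 2.17 above RH/+ (SE 0.16, limma adjusted p = 9.79e-09). Myl7, the atrial myosin light chain, stayed at a mean of 0.343 to 0.524 CPM in the 3 groups and was not called.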
